A study of Mus musculus with 8 samples.

Results

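Long intergenic R-loop peaks were the autosomal union peaks to which the authors' table gave no gene, with a mean score over 30 across 6 libraries and a length over 2000 bp. There were 700 of them among 28265 union peaks, of which 25815 autosomal peaks with a mean score over 30 were tested for a genotype difference. R-loops had been mapped by DRIP-seq in muscle stem cells (MuSCs) of the mouse, in which the S9.6 antibody pulls down sonicated DNA that is paired with RNA. Ctrl cells came from Pax7CreERT/Suv4-20h1WT mice and Kmt5b sKO cells from Pax7CreERT/Suv4-20h1KO mice, where Suv4-20h1 is another name of Kmt5b, with 3 S9.6 libraries per genotype and 1 input library per genotype that had no values used here. Mice of both groups were adults of both sexes, carried the tamoxifen-inducible Cre that is driven from the Pax7 locus, and received tamoxifen. The MuSCs were purified from limb and trunk muscle with magnetic beads and grown in culture, so the peaks describe MuSCs in culture.

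An R-loop forms when a transcript pairs again with its template strand and displaces the other DNA strand. R-loops are known from promoters and from the ends of genes, where RNA polymerase II goes on transcribing past the cleavage site before it is released, so that transcribed DNA extends into sequence annotated as intergenic. Kmt5b adds the second methyl group to lysine 20 of histone H4, and cells without it carry more of the monomethylated form. Repeats such as retrotransposons make up much of the sequence between genes and can be transcribed themselves.

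The 2 questions were whether these regions continue the peaks of a neighbouring gene and how they differ between genotypes. A peak that runs out of a gene without a break carries that gene in the table, so each member is set apart from any genic peak by a gap of at least 200 bp. Members were 2200 to 14600 bp long, with a median of 2600 bp. In other annotations 13 of them overlapped a GENCODE gene and 118 a RefSeq gene, which for 24 was the neighbour's own gene in a longer form. Their mean score, a spike-in scaled sum of S9.6 signal over the peak, ran from 40 to 3258 with a median of 92.8. None of the autosomal intergenic peaks over 2000 bp fell under the level limit. The member just inside it, chr14:45455200-45457399, had scores of 55, 42 and 27 in Ctrl and 57, 27 and 32 in Kmt5b sKO.

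The sequences below show the central 200 bases of 4 regions on which the results turn, taken from the named regions that overlap no RefSeq gene. They are read from the forward strand of GRCm38 (mm10), 5′ to 3′, and capitals mark bases that the reference soft-masks as repeats. The Sema7a and Gm21738 regions were among the largest gains, the Lrrn1 region fell, and the Nfe2l2 region adjoins a genic peak.
Sema7a region, chr9:57965601-57965800: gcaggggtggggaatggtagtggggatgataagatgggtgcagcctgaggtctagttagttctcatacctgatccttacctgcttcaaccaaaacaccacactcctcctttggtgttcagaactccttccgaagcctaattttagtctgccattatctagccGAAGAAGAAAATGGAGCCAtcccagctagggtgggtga
Gm21738 region, chr14:19610401-19610600: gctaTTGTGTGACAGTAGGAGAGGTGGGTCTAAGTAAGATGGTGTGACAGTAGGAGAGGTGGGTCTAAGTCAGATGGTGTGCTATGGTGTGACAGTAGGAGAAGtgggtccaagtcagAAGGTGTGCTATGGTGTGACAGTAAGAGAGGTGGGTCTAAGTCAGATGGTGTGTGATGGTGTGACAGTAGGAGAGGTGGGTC
Lrrn1 region, chr6:107577101-107577300: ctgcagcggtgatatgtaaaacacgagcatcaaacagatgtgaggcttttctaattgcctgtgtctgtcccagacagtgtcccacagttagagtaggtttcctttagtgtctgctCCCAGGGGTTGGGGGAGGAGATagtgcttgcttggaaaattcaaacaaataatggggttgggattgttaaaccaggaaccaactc
Nfe2l2 region, chr2:75672401-75672600: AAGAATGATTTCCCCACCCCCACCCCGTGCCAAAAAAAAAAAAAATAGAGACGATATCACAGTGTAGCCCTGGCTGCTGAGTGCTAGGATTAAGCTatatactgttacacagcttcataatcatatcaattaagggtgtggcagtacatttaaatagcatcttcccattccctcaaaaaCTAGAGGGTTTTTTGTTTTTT
In these windows 19 bases of the Sema7a region, 182 of the Gm21738 region, 22 of the Lrrn1 region and 117 of the Nfe2l2 region were soft-masked. The word of 10 letters GTGTGACAGT occurred 5 times in the Gm21738 window. In the Sema7a and Lrrn1 windows no word of 10 letters came up more than once.

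The members held 1.62% to 1.82% of the score of tested peaks in the Ctrl libraries and 2.36% to 2.38% in the Kmt5b sKO libraries. The muscle stem cell genes Pax7, Myod1, Des and Itga7 carried union peaks and Myf5 and Cdh15 carried none, the immune, fibro-adipogenic and Schwann cell genes checked carried none, and of the endothelial genes Pecam1 carried 3. The summed Pecam1 score was 137, 115 and 129 in Ctrl and 189, 210 and 186 in Kmt5b sKO, and its part in the results was not tested. The peak in the targeted gene, chr19:3805200-3815599, scored 412, 658 and 420 in Ctrl and 440, 449 and 484 in Kmt5b sKO (log2 fold change −0.08, limma adjusted p = 0.68), so the table's signal over Kmt5b does not check the genotype labels.

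A minority of the long intergenic peaks adjoined the peaks of a gene. Of the 700 members, 128 (18.3%) lay within 2000 bp of a genic peak, 86 of them within 1000 bp. Among short intergenic peaks, of 2000 bp or less, 129 of 3358 (3.84%) did, and the difference was not tested. The gap was 200 to 2000 bp with a median of 800 bp. At 5000 bp 212 members qualified, at 10000 bp 291, and 138 did so when they were linked to a genic peak through other intergenic peaks with each gap at most 2000 bp. A further 163 members lay 2 to 10 kb from a genic peak, 211 lay 10 to 50 kb away and 198 lay over 50 kb away.

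The adjoining members lay almost always past the end of the neighbour's gene. Of the 128, 120 (93.8%) were downstream of its 3′ end and 8 upstream of its 5′ end. Among members 2 to 10 kb from a genic peak 73% were downstream, and at 10 to 50 kb and over 50 kb the shares were 49.3% and 47.5%, close to an even split. Short intergenic peaks within 2000 bp were downstream in 99 of 129 (76.7%). The neighbour was a protein-coding gene for 111 of the 128, and the median distance from the gene to the member was 2020.5 bp. There were 6 members with a genic peak within 2000 bp on both sides.

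**Figure D1:**
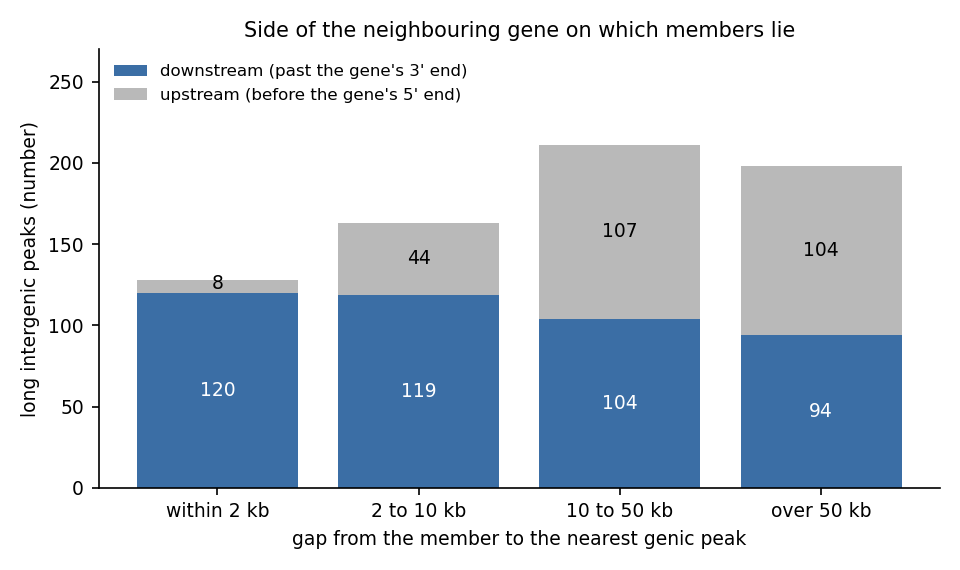
Number of long intergenic peaks (vertical axis) on the downstream and upstream side of the gene that carries the nearest genic peak, in 4 classes of the gap to that peak (horizontal axis). Of the 128 members within 2 kb, 120 were downstream, against 94 of the 198 members over 50 kb away.

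Most of the neighbouring genic peaks themselves ran to the end of their gene. Pairs of consecutive tested peaks, 1 of them a member and the other genic, with a gap of at most 2000 bp numbered 133 and held 127 members and 132 genes. In 99 of these pairs the genic peak spanned the annotated 3′ end of its gene. The genic peak was the longer of the pair in 89 of 133, with a median length of 6200 bp against 3000 bp. Signal per kb was similar in both peaks of a pair. In the 3 Ctrl libraries the member's score per kb was a median of 0.88, 0.82 and 0.92 of that of the genic peak. In the 3 Kmt5b sKO libraries it was 0.96, 0.98 and 1.00 of it. All 3 Kmt5b sKO ratios lay above the 3 Ctrl ratios. Peaks far apart differed little more in Ctrl, with medians per kb of 29.4 for genic peaks over 2000 bp and 23.1 for members over 50 kb away. The ratio therefore cannot tell whether a member continues the signal of the gene.

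The strongest of the adjoining members differed in how they lay to the gene. Past the end of Zfp971, a zinc finger gene of chromosome 2, a member of 11000 bp (chr2:178038800-178049799) scored 445, 506 and 381 in Ctrl and 463, 454 and 472 in Kmt5b sKO. The genic peak 800 bp away scored 500, 624 and 444 in Ctrl and 509, 503 and 459 in Kmt5b sKO. The groups overlapped in both peaks. On the far side of the same interval a member of 13000 bp (chr2:178052600-178065599) lay past the end of Zfp931, another zinc finger gene, with scores of 384, 527 and 390 in Ctrl and 373, 415 and 338 in Kmt5b sKO, again overlapping. A member of 5600 bp downstream of Rock1, a kinase of the actin cytoskeleton, scored 274, 349 and 295 in Ctrl and 308, 359 and 357 in Kmt5b sKO. It carried 54.6 score units per kb in Ctrl against 30 in the genic peak of Rock1, which did not reach the annotated end of the gene. A member of 9600 bp downstream of the noncoding gene 4933413J09Rik scored 267, 342 and 271 in Ctrl and 374, 337 and 322 in Kmt5b sKO. The strongest adjoining member, chr11:3118800-3123199, lay upstream of the pseudogene Pisd-ps1, and here the groups were apart: 390, 299 and 356 in Ctrl against 632, 656 and 718 in Kmt5b sKO (log2 fold change 0.95, SE 0.14, limma adjusted p = 4.77e-09). The genic peak 600 bp away also rose, from 233, 261 and 249 in Ctrl to 660, 606 and 558 in Kmt5b sKO (log2 fold change 1.29). Member minus genic peak, the difference was −0.35 (limma adjusted p = 0.21).

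On the deposited spike-in scale most long intergenic peaks carried more R-loop signal in Kmt5b sKO cells. The mean member score was 94, 107 and 99 in the 3 Ctrl libraries and 156, 163 and 158 in the 3 Kmt5b sKO libraries, so that the groups did not overlap. That is 100 ± 6.58 (SD, n = 3) against 159 ± 3.61 (SD, n = 3), a ratio of 1.59. The median member scored 69, 75 and 72 in Ctrl and 112, 119.5 and 117 in Kmt5b sKO. By limma on log2(score + 1), with calls at a fold change over 1.5 and an adjusted p under 0.1, 397 of the 700 members (56.7%) were higher and 4 were lower. Of all tested peaks 32.9% were called higher and 0.883% lower. All 3 Kmt5b sKO libraries lay above all 3 Ctrl libraries in 465 members and below them in 10, against 41.5% and 3.81% of all tested peaks.

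The members stood between both groups of peaks that share a trait with them. Their median log2 fold change was 0.67, against 0.35 over all tested peaks. Short intergenic peaks had a median of 0.99, with 2747 of 3358 (81.8%) called higher, and genic peaks over 2000 bp had a median of 0.16, with 1704 of 13904 (12.3%) called higher and 180 lower. Peaks at the length limit did not break from this order: the 140 members of 2200 bp had a median of 0.87 and the 209 intergenic peaks of 2000 bp, just outside, one of 0.96. These values depended on the scale of the libraries. Once libraries were brought to one common total, 302 members were higher and 8 lower, with a median of 0.46, and once they were centred on their median tested peak, 150 were higher and 39 lower, with a median of 0.21. Centring moved the median of all tested peaks from 0.35 to −0.11. The share of higher among called members went from 99% to 79.4% under the latter. Of the named regions, here called by the gene of the nearest genic peak at any distance, centring ended the calls of 11. These were 3 of Cntnap5a and those of Gm6225 on chromosome 18, Gm18262, Pisd-ps1 (the adjoining member chr11:3118800-3123199), Gm28653, Megf10, Usp19, Taf15 and Myc. A union peak needed a call in a library of either genotype, and the calls of single libraries were not used here, so how far the choice of union peaks carries the direction was not tested.

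The gain grew with distance from genic peaks. The median member within 2 kb scored 79, 93 and 83 in Ctrl and 110.5, 121.5 and 113.5 in Kmt5b sKO. Over 50 kb away it scored 55, 57 and 59 in Ctrl and 111.5, 119 and 119.5 in Kmt5b sKO. The Kmt5b sKO medians of both classes overlapped, while the Ctrl medians over 50 kb away were all lower than those within 2 kb. From the nearest to the farthest class the median log2 fold change was 0.31, 0.48, 0.69 and 1.02, and 35 of 128, 68 of 163, 120 of 211 and 174 of 198 members were called higher. The share in the nearest class, 27.3%, was below that of all tested peaks, and the share in the farthest was 87.9%. Per kb, the median signal in Ctrl was 28.4 within 2 kb and 23.1 over 50 kb away, and in Kmt5b sKO it was 36.8 and 44.8.

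**Figure D2:**
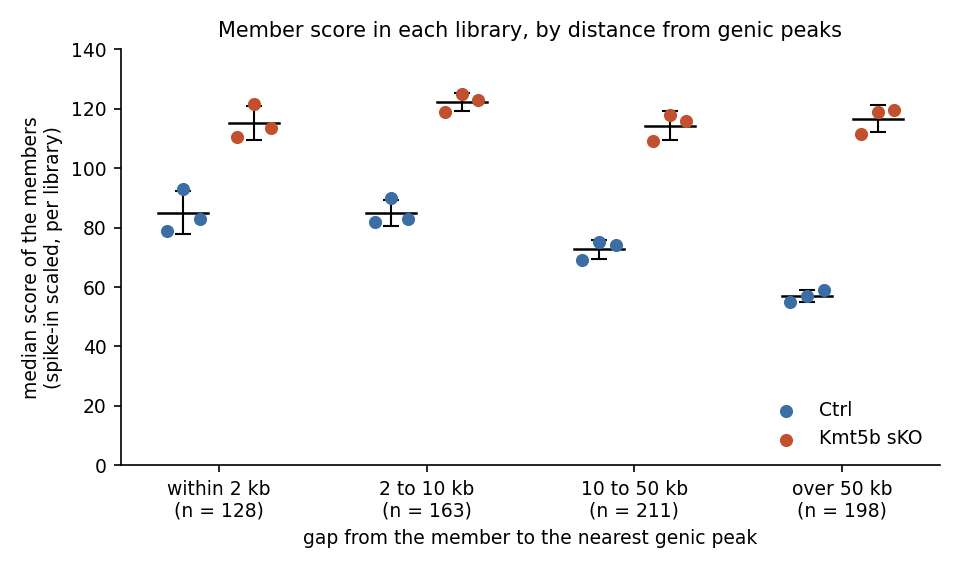
Median spike-in scaled score of the members in each library (points) by the gap to the nearest genic peak, with the mean (line) and SD (bars) of 3 libraries per genotype. Kmt5b sKO libraries sat between 109 and 125 in every class, and Ctrl libraries between 55 and 93.

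Scaling a library shifts the log2 fold changes of all peaks alike, apart from the pseudocount. The order of the classes therefore could not change with the scale, but the sign in the nearest class did. With libraries centred on the median tested peak the class medians were −0.15, 0.03, 0.23 and 0.56, and with the same total per library 0.11, 0.28, 0.48 and 0.81. For the same reason the difference between the farthest and the nearest class, 0.70, stayed at 0.70 under both, which is no check of it. Across the 700 members the Spearman correlation of the log2 fold change with the gap was 0.51, with length −0.35, with the soft-masked share 0.44, with GC content −0.27 and with the mean Ctrl score −0.48. These are descriptions over regions that share libraries, and the mean Ctrl score enters the fold change itself.

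**Figure D3:**
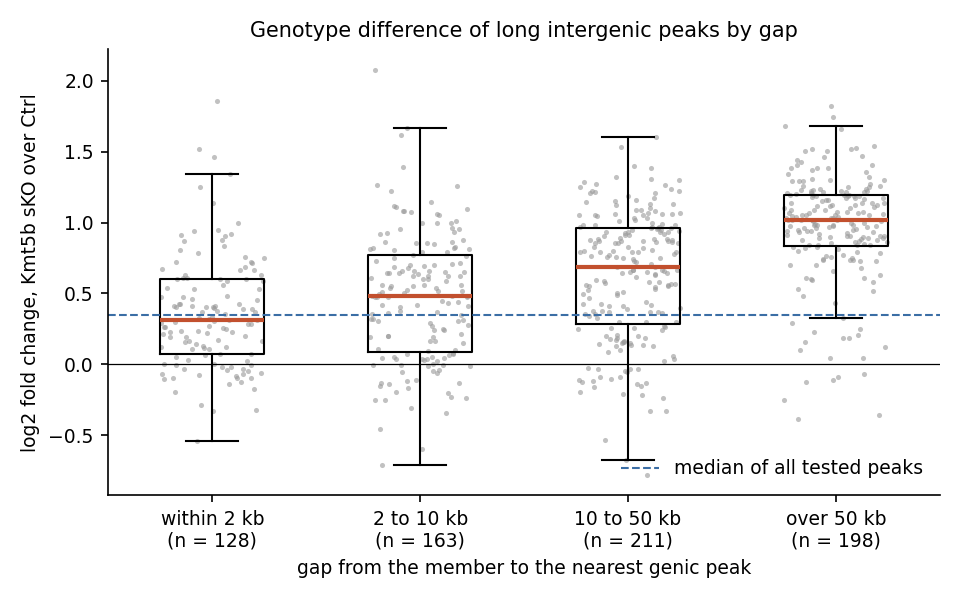
Log2 fold change (Kmt5b sKO over Ctrl) of each of the 700 members (points) by the gap to the nearest genic peak. Boxes span the quartiles with the median in red and whiskers reach at most 1.5 box heights. The class medians ran from 0.31 to 1.02 (from −0.15 to 0.56 with libraries centred on their median peak), and the dashed line marks 0.35, the median of all tested peaks.

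Distance went together with sequence and length. The median member within 2 kb was 3000 bp long, 44.4% GC and 32.5% soft-masked, and over 50 kb away it was 2400 bp long, 38.2% GC and 53.6% soft-masked. Among members with 25% or less of their bases soft-masked, 3 of 38 within 2 kb and 11 of 25 over 50 kb away were called higher, with median log2 fold changes of 0.19 and 0.25. With 25 to 50% soft-masked the counts were 17 of 67 and 55 of 60, with medians of 0.33 and 1.07. Above 50% they were 15 of 23 and 108 of 113, with medians of 0.63 and 1.02. Members over 4000 bp did not follow the order in their medians, with 0.29 for the 30 within 2 kb and 0.16 for the 11 over 50 kb away. Genic peaks over 2000 bp with more than 50% soft-masked bases had a median of 0.43 and 253 of 651 (38.9%) called higher, so the same masked share came with smaller changes inside genes than in the members, whose median there was 0.87.

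**Figure D4:**
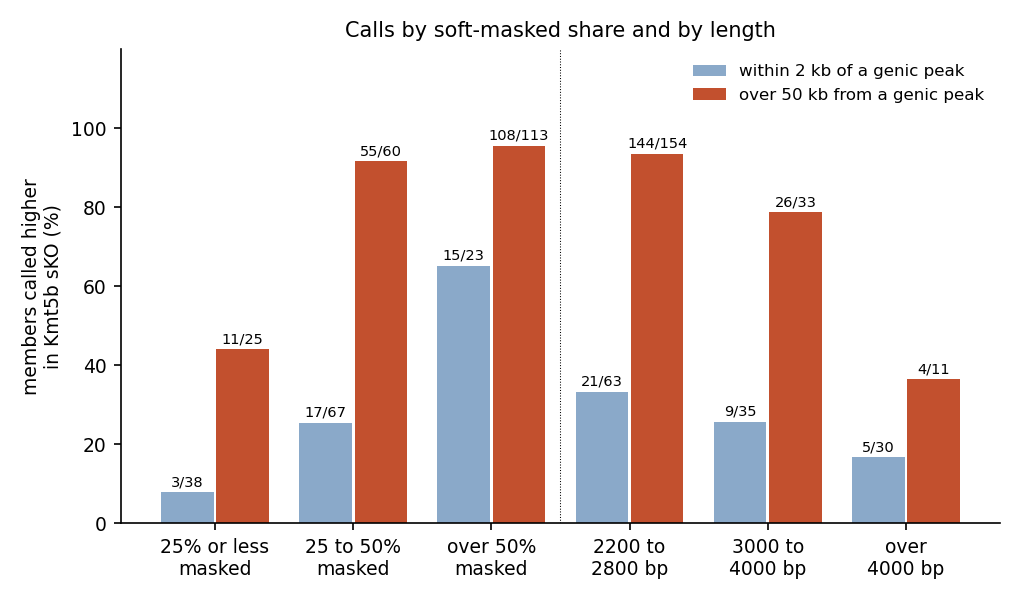
Share of members called higher in Kmt5b sKO (percent, vertical axis) within 2 kb and over 50 kb from a genic peak, in strata of soft-masked share (left 3 pairs) and of length (right 3 pairs), with called over total above each bar. In each of the 6 strata the share was greater over 50 kb away, and the difference in median log2 fold change was 0.05 at 25% or less soft-masked.

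Adjoining members tended to gain more than the genic peak beside them, which was most often the longer of the pair. Over the 133 pairs the median log2 fold change was 0.31 for the member and 0.11 for the genic peak, and the difference, member minus genic peak, had a median of 0.21 and was above 0 in 96 pairs. The member was called higher in 35 pairs and the genic peak in 15, with 8 pairs in both counts and 90 in neither. Tested pair by pair with limma over 5854 neighbouring pairs of the genome, the difference was called at an adjusted p under 0.1 in 24 pairs (18%), against 7.23% of all pairs. In 21 of the 24 the member changed upward relative to the genic peak and in 3 downward. The count rests on single libraries in part: it was 10 without Ctrl replicate 2 and 13 without Ctrl replicate 3. A difference within a pair leaves the scale of a library out, apart from the pseudocount, but not peak length. All genic peaks of 2200 to 2800 bp, 3000 to 4000 bp and over 4000 bp had median log2 fold changes of 0.29, 0.21 and 0.09. Adjoining members of these lengths had 0.31, 0.33 and 0.29, so the shortest were nearly alike. The part of length in the pair differences was not tested.

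**Figure D5:**
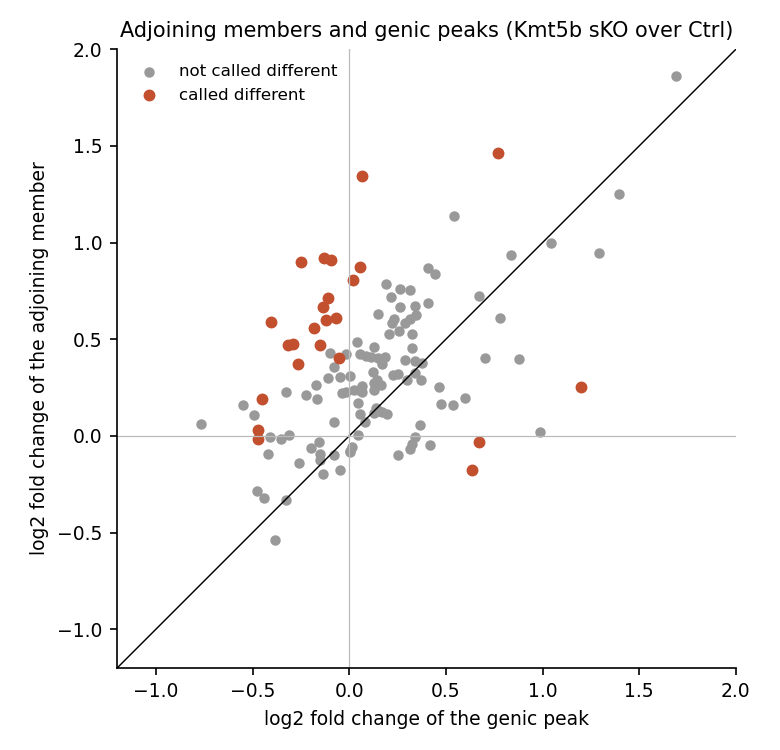
Log2 fold change (Kmt5b sKO over Ctrl) of the adjoining member (vertical axis) against that of the genic peak (horizontal axis) in 133 pairs. Red points are the 24 pairs called different by limma, and the line marks equal change, above which 96 pairs lie.

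The widest such difference lay downstream of Nfe2l2, which encodes the transcription factor of the oxidative stress response. The member chr2:75671200-75673799, whose centre is printed above, scored 50, 75 and 51 in Ctrl and 166, 120 and 162 in Kmt5b sKO. The genic peak 800 bp away, which spans the end of the gene, scored 521, 659 and 531 in Ctrl and 665, 561 and 559 in Kmt5b sKO. The member's groups were apart and those of the genic peak overlapped, and the difference was 1.28 on the log2 scale (SE 0.18, limma adjusted p = 2.98e-05).

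Other pairs differed where the genic peak did not pass the test. Downstream of Megf10, a receptor gene active in satellite cells, the member scored 70, 80 and 90 in Ctrl and 146, 128 and 185 in Kmt5b sKO. The genic peak scored 90, 100 and 104 in Ctrl and 104, 78 and 88 in Kmt5b sKO (difference 1.05, limma adjusted p = 0.0117). Downstream of Usp19, a deubiquitinase gene, the member scored 76, 75 and 53 against 139, 96 and 154, and the difference was 1.01 (limma adjusted p = 0.0264). In both the member's groups were apart. Downstream of the noncoding gene Gm28653 it was 1.15 (limma adjusted p = 0.000373). Downstream of Taf15, an RNA-binding protein gene, the member scored 60, 45 and 39 against 57, 70 and 92, with overlapping groups, and the difference was 0.99 (limma adjusted p = 0.0839). After the end of Bin1, a membrane-shaping gene of the muscle T-tubule, a difference of 0.74 had the lowest adjusted p of all 133 pairs (2.44e-05), a pair named after its values were seen. Its genic peak scored 3980, 5441 and 4040 in Ctrl and 3741, 4073 and 3948 in Kmt5b sKO, and its member 79, 100 and 87 against 125, 147 and 121, which was under the fold limit and not called (log2 fold change 0.56).

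The 3 pairs in the other direction, also named after their values were seen, were those of Trir, Tox2 and Hint1. There the genic peak was called higher and the member was not. For Trir the genic peak scored 46, 69 and 71 in Ctrl and 121, 164 and 141 in Kmt5b sKO, while the downstream member scored 174, 227 and 183 against 262, 226 and 206. The differences from the Trir, Tox2 and Hint1 peaks were −0.95, −0.81 and −0.70. The Trir member also adjoined a Tnpo2 peak at 2000 bp and the Tox2 member a Jph2 peak at 400 bp. Those differences were −0.21 and −0.13 and were not called (limma adjusted p = 0.73 and 0.69).

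The largest gains among members with genotype groups apart came from regions of 2200 to 3000 bp in differing surroundings. The member at chr9:57964600-57966799, downstream of Sema7a, which encodes a membrane-anchored semaphorin, scored 12, 28 and 25 in Ctrl and 84, 76 and 112 in Kmt5b sKO (log2 fold change 2.08, SE 0.30, limma adjusted p = 1.52e-09). At chr15:99598000-99600199, downstream of Aqp5 and overlapping Aqp6 in RefSeq, both water channel genes, the scores were 21, 26 and 44 against 145, 126 and 68 (log2 fold change 1.86). In both, the groups were apart. The Aqp5 genic peak 1200 bp away also rose, with 88, 99 and 84 in Ctrl and 323, 297 and 263 in Kmt5b sKO. Member minus genic peak, the difference was 0.17 (SE 0.29, limma adjusted p = 0.83). A difference that was not called does not show that the member continues Aqp5. The other 3 lay on chromosome 14 at 189600 to 521000 bp from a genic peak, at chr14:19609400-19611599, chr14:6891800-6894799 and chr14:6929800-6931999. Their log2 fold changes were 1.82, 1.74 and 1.68. The first of them, whose repetitive centre is printed above, scored 104, 133 and 126 in Ctrl and 454, 476 and 363 in Kmt5b sKO.

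Of the 4 members called lower, 3 are described, which lay beside Tln2 and Lrrn1. Tln2 encodes talin 2, which links integrins to actin, and both of its members lay upstream of the Ensembl gene and inside the longer RefSeq gene. The larger, chr9:67562000-67571799, scored 293, 390 and 317 in Ctrl and 194, 219 and 245 in Kmt5b sKO (log2 fold change −0.60, SE 0.16, limma adjusted p = 0.000959). The smaller, chr9:67604800-67607999, scored 76, 99 and 76 against 61, 64 and 28. The member downstream of Lrrn1, a leucine-rich repeat membrane protein gene, scored 55, 104 and 72 against 38, 54 and 45. The groups were apart in all 3, but each lost its call when 1 library was left out. That library was Kmt5b sKO replicate 3 for the smaller Tln2 member and Ctrl replicate 2 for the Lrrn1 member and the larger Tln2 member, and leaving out Kmt5b sKO replicate 1 also ended the calls of these last members.

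The 5 members of highest score lay 18400 to 363200 bp from a genic peak and were all called higher. At chr15:75084600-75087199 the score was 1725, 2251 and 1815 in Ctrl and 4819, 4727 and 4212 in Kmt5b sKO (log2 fold change 1.26, SE 0.13, limma adjusted p = 9.16e-19). At chr11:3100000-3105399 it was 944, 1264 and 1146 against 2785, 2970 and 2579. The other 3, chr18:3002400-3011399, chr4:3089000-3091599 and chr2:181915600-181919399, had log2 fold changes of 1.02, 1.30 and 1.10. The chromosome 15 and chromosome 18 members shared at least 1000 bp at 90% identity or more, as did 12 members in 6 pairs. By the paper's description only uniquely aligned reads were kept, so reads that fit both copies may be missing from these scores. Without those 12, 387 of 688 members were called higher. Of 19 members within 1 Mb of the first sequenced base of a chromosome, 16 (84.2%) were called higher. Of these 19, 11 lay over 50 kb from a genic peak, a class with 87.9% called higher. The rest were 4 at 10 to 50 kb (56.9%), 1 at 2 to 10 kb (41.7%) and 3 within 2 kb (27.3%). Whether chromosome ends differ beyond their distance from genic peaks was not tested.

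The longest members behaved otherwise. The longest, chr1:45358400-45372999, began past the end of the collagen gene Col5a2 and scored 588, 709 and 575 in Ctrl and 850, 888 and 902 in Kmt5b sKO, with groups apart. The log2 fold change was 0.50 (SE 0.14, limma adjusted p = 0.00159), under the fold limit, which it passed without Ctrl replicate 2. The member of 11000 bp upstream of Yy1, a transcription factor gene, scored 420, 488 and 383 against 434, 509 and 476, with overlapping groups. Of the 5 longest only the member near the pseudogene Gm18262 was called, with 346, 471 and 499 in Ctrl and 844, 876 and 849 in Kmt5b sKO (log2 fold change 0.98). The 105 members above 4000 bp had a median log2 fold change of 0.25, and 24 of them passed as higher and 2 as lower.

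That member belonged to a stretch of chromosome 13 with 7 members in 173 kb (chr13:12763400-12936399), all called higher, near the placental hormone gene Prl2c3. Their summed score was 1446, 1854 and 1899 in Ctrl and 3206, 3432 and 3233 in Kmt5b sKO. A stretch of chromosome 4 (chr4:147397800-147461199) held 6 members, all called higher, with 1065, 1255 and 1469 against 2526, 2590 and 2421. In contrast, a chain of 4 members past the end of Mtdh, within 17.8 kb, rose little. Its summed scores were 333, 349 and 326 in Ctrl and 447, 451 and 438 in Kmt5b sKO, and 1 of the 4 was called. All of these stretches had groups apart.

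The members farthest from any genic peak lay on chromosomes 1 and 14, with the nearest coding gene 39501 to 350816 bp away. The farthest, chr1:111328400-111331599, at 4395400 bp from a peak of Cntnap5a, scored 75, 69 and 68 in Ctrl and 100, 147 and 158 in Kmt5b sKO (log2 fold change 0.90, SE 0.20, limma adjusted p = 0.000126). The other 4 were also called higher, with log2 fold changes of 0.70 to 1.32.

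Lists of muscle, matrix and other genes were compared with the gene of the genic peak nearest to each member. Of 44 listed genes with a union peak 5 (11.4%) were the nearest gene of a member, against 612 of 8344 (7.33%) over all autosomal genes with one, and the difference was not tested. None of the 5 members lay within 2000 bp of a genic peak. Of 12 myogenic and stem cell genes 10 carried union peaks, and none was the nearest gene of a member. Of 24 sarcomere genes 15 carried union peaks, and Tnnt3, a troponin gene, was the nearest gene of a member. That member lay 24990 bp from Tnnt3 and 253 bp from the coding gene Mrpl23. It scored 60, 66 and 61 in Ctrl and 90, 78 and 79 in Kmt5b sKO (log2 fold change 0.39, limma adjusted p = 0.161). Of 18 matrix genes 10 carried union peaks, and Col5a2 was the nearest gene of the longest member. With 9 to 15 such genes per list, the counts are too small to show a departure from 7.33%.

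The list of 17 early response and growth genes also held the noncoding RNA genes Malat1 and Neat1, and 9 of its genes carried union peaks. Of these, 3 were the nearest gene of a member. All 3 members were called higher, against 56.7% of all members. Past the end of Neat1, the noncoding RNA that builds paraspeckles, the member chr19:5816600-5821999 scored 127, 128 and 131 in Ctrl and 406, 458 and 335 in Kmt5b sKO (log2 fold change 1.62, SE 0.16, limma adjusted p = 1.41e-20). Past the end of Malat1, a noncoding RNA of nuclear speckles in the same stretch of chromosome 19, the scores were 60, 71 and 65 against 163, 208 and 151 (log2 fold change 1.39). At 22625 bp downstream of Myc, a growth-promoting transcription factor gene, they were 64, 89 and 81 against 109, 117 and 154 (log2 fold change 0.69). The groups were apart in all 3, and the call near Myc ended under both other scalings of the libraries and without Ctrl replicate 1 or Kmt5b sKO replicate 3.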

How the data were processed

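S9.6 DRIP-seq of 3 Ctrl and 3 Kmt5b sKO libraries was used. The authors trimmed reads with Trimmomatic 0.39, aligned them with STAR 2.7.3a to mm10 (GRCm38), processed alignments with Picard 2.21.7, called peaks against input with Epic2 (SICER 0.0.41 per the labels), removed blacklisted regions, unified the peaks and annotated each with the Ensembl gene of longest overlap. The deposited score of a union peak is a sum of signal scaled by Drosophila spike-in reads and rounded by the authors. It is not a read count, so the reads behind a score, and an interval for it, are unknown. The libraries are described as biological replicates.

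Members and lists were chosen with earlier results of these data known. Each peak was tested with limma 3.58.1 (R 4.3.3, lmFit and eBayes with trend, two-sided) on log2(score + 1) over 25815 autosomal peaks with a mean score over 30, with Benjamini-Hochberg adjustment. Calls used the study's limits, a fold change over 1.5 and an adjusted p under 0.1. Fold changes understate the change of low peaks, and the prior was infinite, so variances came from the trend. Pairs were tested on the difference of log2(score + 1) over 5854 consecutive pairs with a gap of at most 2000 bp. Simulated data had the spread of the fit and a planted log2 change of 1.5 in either direction. There 179 of 200 changed peaks among 25815 were called with 16 false calls, and 194 of 200 among 5854 pairs with 22 false calls. Recovery of smaller changes, such as the members' median of 0.67, was not tested. Starts are multiples of 200 and may lie 1 base before the first base of a browser. Gene ends, strands and types of the neighbours came from the authors' table. Of its 8490 gene identifiers 8483 were found in GENCODE vM21, from which gene names and the nearest coding gene were taken. GC content, soft-masking and sequences came from the GRCm38.p6 RefSeq genome, and shared sequence from blastn 2.17.0 at 90% identity over 1000 bp. Regions were named by rule: the 5 largest gains and up to 5 largest losses among called members with groups apart, the 5 of highest score, the 5 longest, among adjoining members the 5 of highest score and the 5 that differ most from the genic peak, the 5 farthest, members next to listed genes, and those at the thresholds. Gap classes, strata of length and soft-masking, and clusters were chosen after seeing the data. Alternatives were other pseudocounts, level, length and fold limits, scalings, gaps, gene annotations, variances, a replicate block and leaving out each library. Some items that the rule named are not reported here.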

Additional observations from a re-analysis of the deposited data

Results flagged for a closer look

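Intergenic peaks over 2000 bp on the sex chromosomes were outside the comparisons above and also carried more signal in Kmt5b sKO. The 23 such peaks on X had a mean score of 76.6, 147 and 119 in Ctrl and 241, 254 and 231 in Kmt5b sKO, a ratio of 2.12, and 19 of them had all Kmt5b sKO libraries above all Ctrl libraries. The 3 on Y had mean scores of 500.3, 298 and 393 in Ctrl and 712, 769 and 734 in Kmt5b sKO, a ratio of 1.86. The groups did not overlap on either chromosome. Mice of both sexes were used, and the part of sex in these values was not tested.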

How the results depend on the processing

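The 397 members called higher stayed within 1.5 times of that count with a pseudocount of 8 (374), the same total per library (302), the variance of each peak alone (337), members outside GENCODE genes (386) or, added after seeing the data, outside RefSeq genes (338), and without any 1 library. The count was 153 of 296 at a mean score over 100, 150 centred on the median tested peak, 167 at a fold change over 2 and 24 of 105 above 4000 bp. The 4 called lower became 8 with the same total, 2 at a mean score over 100, 39 when centred, 1 with own variances, 0 at a fold change over 2, 2 above 4000 bp, 2 outside RefSeq genes, and 1 to 6 without 1 library. The median log2 fold change of 0.67 became 0.46 with the same total, 0.21 when centred and 0.25 above 4000 bp. The ratio of mean scores of 1.59 became 1.37 with the same total and 1.15 when centred. The 128 adjoining members were 212 at a gap of 5000 bp and 291 at 10000 bp. The 24 pairs called different were 15 at a gap of 1000 bp, 41 at 5000 bp and 10 to 22 without 1 library. The difference of 0.70 between members over 50 kb away and adjoining members was 0.053, 0.74 and 0.39 by rising soft-masked share, 0.73 and 0.57 at 2200 to 2800 and 3000 to 4000 bp and −0.13 above 4000 bp (11 against 30 members), where it reversed. The cause was not tested. Of 419 combinations of 36 named regions and settings, 384 kept call and direction, 33 lost the call, 2 gained it and 0 reversed, with 11 of the lost calls under centring. Replicate numbers did not pair the libraries (correlations of deviations of −0.0094, 0.011 and −0.027). With the replicate block 397 members were higher, 4 lower and 21 pairs different. The scores come without the reads behind them, and low peaks are the least certain. The paper lists fewer uniquely mapped reads for each Kmt5b sKO library than for any Ctrl library. Depth thus differed by genotype, and its part in the scores was not tested.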
